A study of Mus musculus with 15 samples.

Results

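The SOX transcription factors described here are 9 genes, Sox1, Sox2, Sox4, Sox5, Sox6, Sox8, Sox9, Sox11 and Sox21, chosen by gene symbol out of 18193 genes measured on 15 Affymetrix mouse arrays. For each gene the probe set (a group of short probes against one transcript) whose mean over the 15 arrays was highest stands for the gene, and the other 25 of the 34 probe sets of these genes served as a cross-check. The arrays held RNA of astroglia that had answered to Sonic hedgehog (Shh), sorted from adult male mice, with 5 arrays for each of 3 brain regions: subventricular zone (SVZ), hippocampus and cerebellum. All mice had the genotype Gli1-CreER;GFAP-GFP;R26tdTomato, in which the Shh target Gli1 drives an inducible recombinase, tdTomato marks the recombined cells for good, and GFP follows the astroglial Gfap promoter. The mice were 6 to 8 weeks old and received 2 doses of 10 mg tamoxifen, and double-positive cells were sorted 3 weeks later, with 10 to 12 mice pooled for each array. The labels thus mark cells by Gli1 activity at the time of tamoxifen and not at the time of the sort. SVZ and hippocampus hold adult neural stem cells and the cerebellum was the region of comparison, so stem cell presence and brain region cannot be told apart.

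SOX proteins bind DNA through a shared HMG box and fall into groups by the sequence of that box. SOX1 and SOX2 (group B1) keep neural progenitors undifferentiated, SOX21 (group B2) counteracts them, and SOX4 and SOX11 (group C) switch on neuronal genes as progenitors become neuroblasts. SOX5 and SOX6 (group D) lack an activation domain of their own and modulate other SOX proteins, whereas SOX8 and SOX9 (group E) act in glial development, and SOX9 is a nuclear marker of astrocytes in the adult brain.

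Levels are deposited RMA signals, read as log2, and differences between regions are log2 differences, each ± its standard error in the limma fit. Called genes are those whose p, adjusted by Benjamini-Hochberg over all 18193 genes, fell under 0.05. Array medians lay between 1.12 and 1.31, so values near 1 sit at the level of the dim bulk of probe sets, where folds are understated. Levels of different genes come from different probes and are not set against each other. SVZ and hippocampus arrays varied more than cerebellum arrays, with a median SD over the 9 SOX genes of 1.00 in SVZ and 0.905 in hippocampus, against 0.466 in cerebellum. The 12 spike-in control probe sets averaged 12.62 ± 0.86 in SVZ and 12.49 ± 0.59 in hippocampus, against 10.32 ± 1.68 in cerebellum (SD, n = 5 arrays each), and their part in the differences from cerebellum was not tested beyond the fit with their mean as a covariate. SVZ 1 and hippocampus 3 were the arrays least like the others of their region, with mean correlations across genes of 0.793 and 0.803. In SVZ 1, Sox8, Sox9, Sox21, Sox4 and Sox11 had their lowest SVZ value, 5 of the 9 genes. The arrays are pools of sorted cells, and fewer cells of a type and less RNA per cell cannot be told apart. The labels do not say whether the pools of a region came from separate sorts, and p-values measure the spread between these arrays.

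The sorted cells carried astroglial RNA in every region. The mean level of 10 astroglial markers (Gfap, Aqp4, Slc1a3, Slc1a2, Aldh1l1, Gja1, S100b, Glul, Aldoc and Slc4a4) ran from 8.16 to 8.79 in SVZ, from 7.80 to 9.08 in hippocampus and from 8.77 to 9.93 in cerebellum. Gli1 averaged 2.80 ± 1.31 in SVZ, 2.83 ± 1.91 in hippocampus and 3.17 ± 0.35 in cerebellum (SD, n = 5 arrays each). Gfap averaged 4.51 ± 1.06 in SVZ, 6.93 ± 0.63 in hippocampus and 4.99 ± 1.23 in cerebellum.

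Across the 3 regions 8 of the 9 SOX genes passed the test in no comparison. In SVZ against cerebellum, Sox4 alone was called, as higher, so that 1 of 9 SOX genes passed where 5.51% of all genes did. By direction, 1 was higher beside 1.03% of all genes and 0 were lower beside 4.47%. In hippocampus against cerebellum 0 of 9 passed in the limma fit, where 4.78% of all genes did (0.808% higher and 3.97% lower), and 1, Sox11, had an unadjusted p under 0.05. Between SVZ and hippocampus 0 of 9 passed, where 0.022% of all genes did (0.0165% higher and 0.0055% lower), and Sox4 and Sox6 had an unadjusted p under 0.05. The median log2 difference of the 9 genes was 0.24 in SVZ against cerebellum, beside 0.068 over all genes. It was -0.23 in hippocampus against cerebellum, beside 0.068 over all genes, and 0.074 between SVZ and hippocampus, beside -0.004. The comparisons with cerebellum share the same 5 cerebellum arrays.

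**Figure D1:**
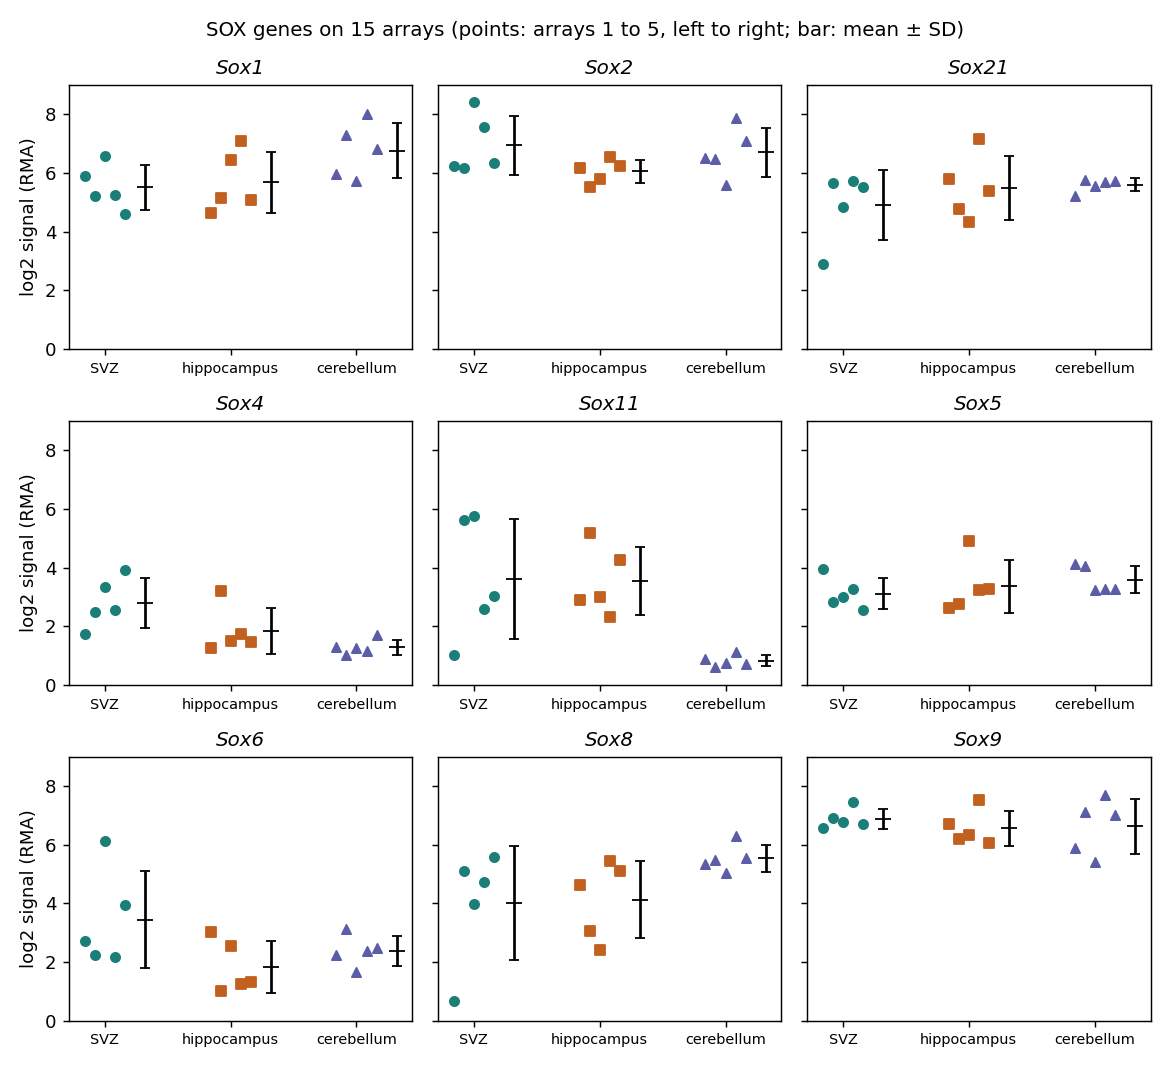
Log2 signal of the 9 SOX genes (y axis) on each of 5 arrays from SVZ (circles), hippocampus (squares) and cerebellum (triangles), with the mean and SD of each region as a bar. Sox11 sits at 0.63 to 1.13 on all cerebellum arrays, whereas Sox2 and Sox9 lie above 5 on all 15 arrays.

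Of the group C genes among the 9, Sox4 was called higher in SVZ than in cerebellum and Sox11 had the widest gap without being called. Sox12, a group C gene outside the 9, was called in no comparison. Sox4, which with Sox11 promotes neuronal differentiation and the survival of progenitors, read 1.73, 2.48, 3.34, 2.54 and 3.91 on SVZ arrays 1 to 5, and the values of each region are given in this order throughout. In hippocampus the arrays gave 1.25, 3.20, 1.51, 1.75 and 1.47. In cerebellum the arrays gave 1.28, 1.02, 1.27, 1.16 and 1.71. Every SVZ array lay above every cerebellum array, by a narrow margin of 1.73 against 1.71, while hippocampus overlapped with both. Sox4 was the 1 SOX gene of 9 without overlap between SVZ and cerebellum, an arrangement that 8.62% of all genes had. Its log2 difference in SVZ against cerebellum was 1.51 ± 0.41 (95% interval 0.64 to 2.39, 2.85-fold, adjusted p = 0.0455). Against cerebellum it differed by 0.55 ± 0.41 in hippocampus (adjusted p = 0.453), and by 0.21 without hippocampus 2. SVZ differed from hippocampus by 0.96 ± 0.41 (adjusted p = 0.666). The order of the levels was SVZ, hippocampus, cerebellum, and neither pair of neighbours passed the test.

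The Sox4 call stood close to the threshold. It was lost without SVZ 2, 3, 4 or 5 (adjusted p = 0.0567, 0.0893, 0.063 and 0.0929), without hippocampus 3, 4 or 5 (0.0516, 0.0551 and 0.0545) and without cerebellum 1, 2, 3, 4 or 5 (0.0824, 0.103, 0.0857, 0.0946 and 0.0683), and kept without SVZ 1 (0.0199), hippocampus 1 (0.0478) or hippocampus 2 (0.0165). The difference itself ran from 1.23 to 1.78 over these 15 fits. The call was also lost with quantile normalization (0.0558), median centring (0.0639) and the mean spike-in level as a covariate (0.218). The probe set used had a mean of 1.97, itself under 2. The gene has 7 further probe sets, also all with a mean under 2. Of these, 6 pointed the same way in SVZ against cerebellum and 0 were called on their own, where 4.91% of all probe sets were. With the mean of its probe sets the difference was 0.47 (adjusted p = 0.0269).

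Sox11, the close relative of Sox4 that marks young neurons in the adult stem cell regions, had the widest gap from cerebellum. It read 1.02, 5.63, 5.75, 2.58 and 3.04 on SVZ arrays 1 to 5. Hippocampus values were 2.90, 5.18, 3.00, 2.32 and 4.25. Cerebellum values were 0.88, 0.63, 0.75, 1.13 and 0.73. All 5 cerebellum values were at or below the median of their own array, all 5 hippocampus values were above all cerebellum values, and in SVZ only array 1 fell within the cerebellum range. Sox11 was the 1 SOX gene of 9 without overlap between hippocampus and cerebellum, as were 7.98% of all genes. The log2 difference was 2.78 ± 0.80 in SVZ against cerebellum (95% interval 1.06 to 4.50, 6.87-fold, adjusted p = 0.0596). In hippocampus against cerebellum it was 2.71 ± 0.80 (95% interval 0.99 to 4.43, 6.53-fold, adjusted p = 0.074). Neither passed the threshold of 0.05. SVZ and hippocampus differed by 0.07 ± 0.80 (95% interval -1.65 to 1.79, adjusted p = 0.988).

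With the rule stated for the series, a change above 4-fold whose unadjusted p is under 0.01, Sox11 passed in SVZ against cerebellum, 1 of 9 SOX genes beside 3.21% of all genes. It passed by this rule in hippocampus against cerebellum as well, 1 of 9 beside 2.87% of all genes. Without SVZ 1 its adjusted p was 0.0139 in SVZ against cerebellum, at a difference of 3.43, and 0.0333 in hippocampus against cerebellum, and SVZ 1 holds the lowest Sox11 value of SVZ. Over all single arrays left out, the difference ran from 2.24 to 3.43 with adjusted p values up to 0.125 in SVZ, and from 2.29 to 3.01 with adjusted p values up to 0.147 in hippocampus. The second probe set by mean level had means of 2.59 ± 1.03 for SVZ, 2.55 ± 1.61 for hippocampus and 1.24 ± 0.10 for cerebellum, with a log2 difference from cerebellum of 1.35 for SVZ (adjusted p = 0.271) and 1.31 for hippocampus (adjusted p = 0.289). All 5 further probe sets pointed up against cerebellum in both regions, and 0 were called.

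**Figure D2:**
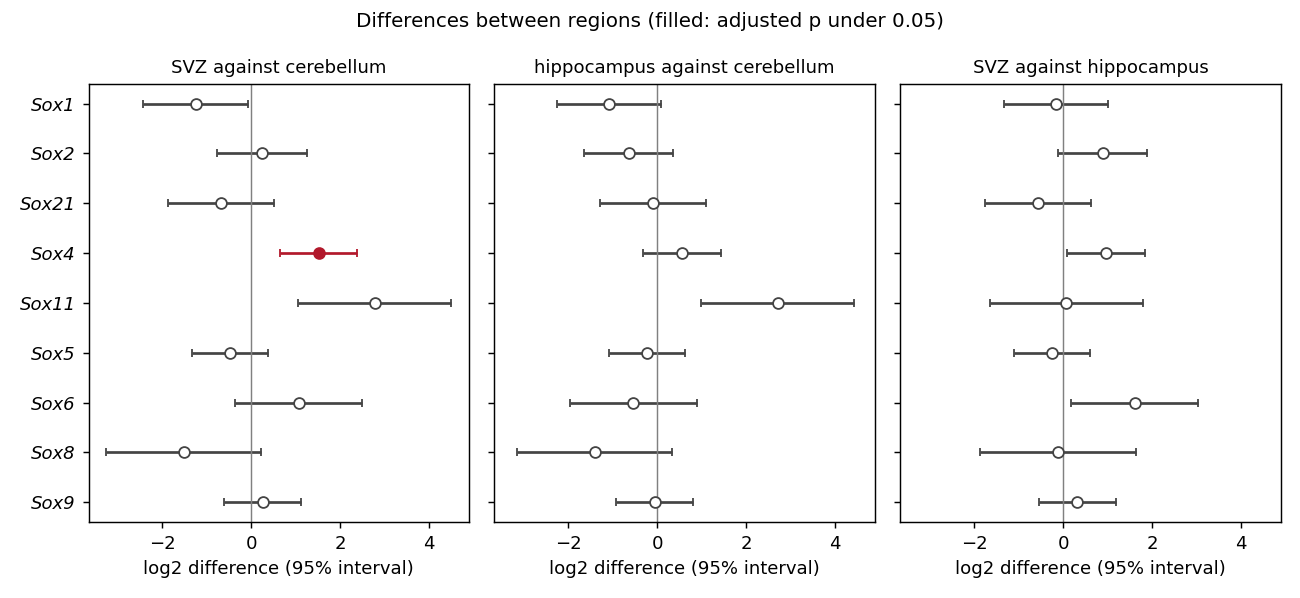
Log2 difference (x axis) of each SOX gene in SVZ against cerebellum, hippocampus against cerebellum and SVZ against hippocampus, with its 95% interval from the limma fit. Only Sox4 in SVZ against cerebellum is filled as called, and the widest gaps are those of Sox11 at 2.78 and 2.71.

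Because Sox4 and Sox11 were those of the 9 SOX genes that read higher in both forebrain regions than in cerebellum, the sequence upstream of each is shown. RefSeq (GRCm38.p6) gives a promoter window for 8 of the 9 SOX genes, 13 windows in all. The 250 bases before the transcript start of each window were searched on both strands. The motifs were CCAAT, ATGCAAAT (the octamer of POU factors), AACAAT (a SOX motif) and GACCACCCA (the motif of GLI factors). Capitals mark CCAAT boxes, written ATTGG where they lie on the opposite strand. The Sox4 window, chr13:28953700-28953949 on the minus strand, holds 4 and the Sox11 window, chr12:27342719-27342968 on the minus strand, holds 1.
Sox4: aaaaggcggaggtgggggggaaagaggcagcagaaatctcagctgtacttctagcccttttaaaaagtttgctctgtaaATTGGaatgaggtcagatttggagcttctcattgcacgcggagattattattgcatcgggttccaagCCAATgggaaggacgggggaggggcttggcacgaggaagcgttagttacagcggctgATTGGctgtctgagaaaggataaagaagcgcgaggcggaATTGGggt
Sox11: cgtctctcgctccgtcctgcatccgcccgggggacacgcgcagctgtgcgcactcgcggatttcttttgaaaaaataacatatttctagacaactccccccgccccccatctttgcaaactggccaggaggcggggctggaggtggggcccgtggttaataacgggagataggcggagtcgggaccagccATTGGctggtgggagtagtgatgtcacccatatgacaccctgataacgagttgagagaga
CCAAT was found in a window of 5 of 8 SOX genes (Sox1, Sox2, Sox4, Sox6 and Sox11), in 6 of 13 windows, beside 33.8% of all 32851 windows of the same length. The SOX motif was found in 1 window, of Sox6, beside 9.4% of all windows. The Sox6 windows with a match, for CCAAT or the SOX motif, lie inside the Sox6 gene and not before its outer end. The octamer and the GLI motif were in 0 of 13 windows, beside 1.6% and 0.2% of all windows. No match overlapped another.

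Sox4 was the SOX gene called in a comparison, and the genes whose profile over the 15 arrays came closest to it were taken by the smallest root mean square difference after centring each gene on its own mean. These were Ifi27l2a, an interferon-inducible gene (0.444 log2 units), Zfand5, which encodes a zinc finger protein of the proteasome system (0.472), and Fam111a, a gene for a protease-like nuclear protein (0.483), beside a median of 1.00 over all genes. Ifi27l2a averaged 1.98 in SVZ, 1.07 in hippocampus and 0.966 in cerebellum. Zfand5 averaged 8.52 in SVZ, 7.37 in hippocampus and 7.40 in cerebellum.

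Sox1 and Sox2, the group B1 factors of neural progenitors, were measured well above the array medians everywhere on the probe sets used. Sox1, which is also made by Bergmann glia, the radial astroglia of the cerebellar cortex, read 5.91, 5.21, 6.57, 5.26 and 4.59 on SVZ arrays 1 to 5. The hippocampus arrays read 4.65, 5.14, 6.43, 7.10 and 5.07. The cerebellum arrays read 5.95, 7.30, 5.74, 8.02 and 6.81. The highest cerebellum values lay above all forebrain values, but the groups overlapped. The log2 difference against cerebellum was -1.26 ± 0.55 for SVZ (95% interval -2.43 to -0.08, adjusted p = 0.206) and -1.09 ± 0.55 for hippocampus (95% interval -2.26 to 0.09, adjusted p = 0.28). SVZ and hippocampus, neighbours in the order, differed by -0.17 ± 0.55 (adjusted p = 0.955). The further Sox1 probe set was dim, with means of 0.99 in SVZ, 1.15 in hippocampus and 0.94 in cerebellum. Its differences from cerebellum had the other sign, at 0.04 for SVZ (adjusted p = 0.906) and 0.21 for hippocampus (adjusted p = 0.514).

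Sox2, the factor most used as a marker of neural stem cells and also present in adult astrocytes, read 6.25, 6.16, 8.41, 7.57 and 6.35 on SVZ arrays 1 to 5. In hippocampus the arrays gave 6.17, 5.53, 5.81, 6.55 and 6.25. In cerebellum the arrays gave 6.52, 6.47, 5.59, 7.87 and 7.08. SVZ 3 and SVZ 4 stood above all hippocampus arrays, and the remaining SVZ arrays lay among them. Against cerebellum the difference was 0.24 ± 0.47 for SVZ (95% interval -0.77 to 1.25, adjusted p = 0.785) and -0.64 ± 0.47 for hippocampus (95% interval -1.65 to 0.36, adjusted p = 0.444). SVZ differed from hippocampus by 0.89 ± 0.47 (95% interval -0.12 to 1.89, adjusted p = 0.719), and by 0.52 without SVZ 3. Sox2ot, the long noncoding RNA that overlaps the Sox2 locus, averaged 1.83 ± 1.32 in SVZ, 1.03 ± 0.23 in hippocampus and 0.884 ± 0.515 in cerebellum, and did not pass in any comparison (adjusted p = 0.288 in SVZ against cerebellum, 0.874 in hippocampus against cerebellum and 0.75 between SVZ and hippocampus).

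Sox21, the group B2 counterpart, ranged from 2.89 to 5.72 in SVZ (median 5.51), from 4.33 to 7.15 in hippocampus (median 5.40) and from 5.22 to 5.77 in cerebellum (median 5.71). The cerebellum arrays had an SD of 0.23, and the low SVZ end was array 1. Its difference against cerebellum was -0.67 ± 0.56 for SVZ (adjusted p = 0.506) and -0.11 ± 0.56 for hippocampus (adjusted p = 0.923), and between SVZ and hippocampus it was -0.57 ± 0.56 (adjusted p = 0.832). Without SVZ 1 these SVZ differences were -0.17 and -0.06. The further probe set of Sox21 had means of 2.60 ± 1.12 for SVZ, 4.76 ± 2.23 for hippocampus and 4.24 ± 0.30 for cerebellum, with a SVZ difference of -1.64 ± 0.85 from cerebellum (adjusted p = 0.306) and -2.16 ± 0.85 from hippocampus (adjusted p = 0.689, among all probe sets, where 0.0143% were called between SVZ and hippocampus).

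The probe sets of the group D genes did not all give the same answer, mostly in size and call for Sox5 and in direction for Sox6. Sox5, a modulator of glial and neuronal differentiation, averaged 3.11 ± 0.53 in SVZ, 3.36 ± 0.91 in hippocampus and 3.59 ± 0.47 in cerebellum on the probe set used. The groups overlapped, with differences against cerebellum of -0.47 ± 0.40 for SVZ (adjusted p = 0.515) and -0.23 ± 0.40 for hippocampus (adjusted p = 0.755), and of -0.24 ± 0.40 between SVZ and hippocampus (adjusted p = 0.9). Sox5 has 6 further probe sets, of which 5 pointed lower in SVZ against cerebellum and 4 in hippocampus, like the probe set used. When every probe set was tested, 1 of the 6 was called lower in both forebrain regions. Beside it, 4.91% of all probe sets were called in SVZ and 4.23% in hippocampus. That probe set, singled out after its values were seen, read 1.91, 1.80, 1.86, 1.33 and 1.20 on SVZ arrays 1 to 5. Hippocampus values were 1.22, 1.53, 1.62, 1.52 and 1.66. Cerebellum values were 2.40, 4.15, 3.24, 3.54 and 2.68. Every cerebellum array was above every forebrain array. Its log2 difference from cerebellum was -1.58 ± 0.28 for SVZ (adjusted p = 0.00453) and -1.69 ± 0.28 for hippocampus (adjusted p = 0.00284). The second probe set by mean level differed by -2.38 ± 0.73 for SVZ (adjusted p = 0.0792) and -1.16 ± 0.73 for hippocampus (adjusted p = 0.392). With the mean of its 7 probe sets Sox5 was lower in SVZ at -0.72 (adjusted p = 0.0269). Which transcripts the probe sets cover was not analysed here.

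Sox6, which restrains oligodendrocyte differentiation and marks some interneurons, read 2.72, 2.26, 6.12, 2.17 and 3.96 on SVZ arrays 1 to 5. The hippocampus arrays read 3.01, 1.03, 2.56, 1.26 and 1.32. The cerebellum arrays read 2.23, 3.14, 1.68, 2.37 and 2.48. SVZ 3 and SVZ 5 were above all other arrays, and the other 3 SVZ arrays lay within the cerebellum range. The difference was 1.07 ± 0.67 in SVZ against cerebellum (adjusted p = 0.376), -0.54 ± 0.67 in hippocampus against cerebellum (adjusted p = 0.651) and 1.61 ± 0.67 between SVZ and hippocampus (95% interval 0.18 to 3.04, adjusted p = 0.653). Without SVZ 3 the SVZ differences were 0.40 from cerebellum and 0.94 from hippocampus. The second probe set pointed the other way in SVZ against cerebellum, at -0.92 ± 0.32 (adjusted p = 0.124), so no direction can be given for Sox6.

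**Figure D3:**
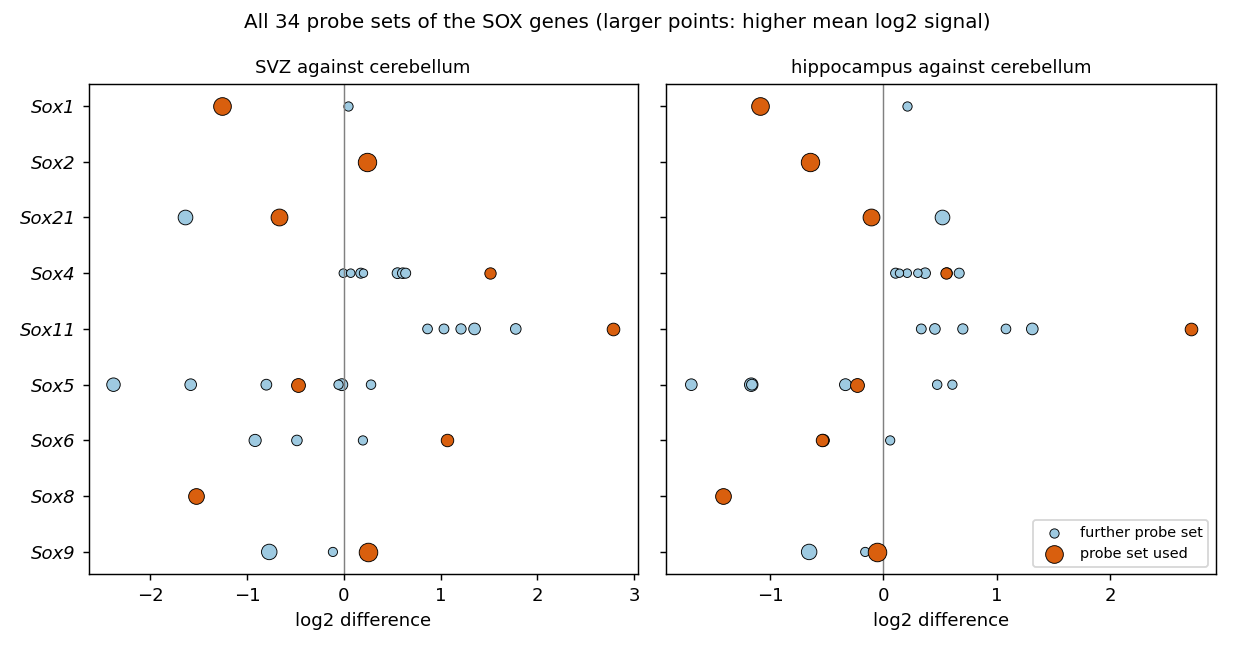
Log2 difference (x axis) of every probe set of the 9 SOX genes in SVZ against cerebellum and hippocampus against cerebellum, with the probe set used in orange, further ones in blue and larger points for a higher mean signal. All 6 Sox11 probe sets lie right of 0 in both panels, whereas the Sox6 and Sox9 probe sets fall on both sides in SVZ against cerebellum.

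Sox8, which acts with Sox9 and Sox10 in glial lineages, read 0.69, 5.09, 3.98, 4.72 and 5.59 on SVZ arrays 1 to 5. In hippocampus the arrays gave 4.62, 3.06, 2.42, 5.45 and 5.10. In cerebellum the arrays gave 5.35, 5.48, 5.04, 6.29 and 5.54. In SVZ, arrays 2 and 5 reached the cerebellum range, as did arrays 4 and 5 in hippocampus, and the SVZ value of array 1 was below the median of its array. Against cerebellum the difference was -1.53 ± 0.82 for SVZ (95% interval -3.27 to 0.22, adjusted p = 0.304) and -1.41 ± 0.82 for hippocampus (95% interval -3.16 to 0.34, adjusted p = 0.34). Without SVZ 1 the SVZ difference from cerebellum was -0.695. SVZ and hippocampus differed by -0.12 ± 0.82 (adjusted p = 0.981).

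Sox9, the astrocyte marker of the family, read 6.56, 6.90, 6.78, 7.45 and 6.69 on SVZ arrays 1 to 5. Hippocampus values were 6.70, 6.18, 6.34, 7.53 and 6.06. Cerebellum values were 5.88, 7.12, 5.41, 7.70 and 7.0. The cerebellum arrays spanned the range of both forebrain regions. The difference was 0.25 ± 0.40 in SVZ against cerebellum (95% interval -0.61 to 1.12, adjusted p = 0.736), -0.06 ± 0.40 in hippocampus against cerebellum (95% interval -0.93 to 0.81, adjusted p = 0.941) and 0.31 ± 0.40 between SVZ and hippocampus (95% interval -0.55 to 1.18, adjusted p = 0.871). The second Sox9 probe set had means of 4.10 ± 0.29 for SVZ, 4.21 ± 0.57 for hippocampus and 4.87 ± 0.93 for cerebellum, at -0.77 ± 0.39 for SVZ (adjusted p = 0.297) and -0.65 ± 0.39 for hippocampus (adjusted p = 0.371) against cerebellum.

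Within the cerebellum several SOX genes had their highest or lowest value on the same array. Cerebellum 4 had the highest value of 5 of the 9 genes, Sox1, Sox2, Sox8, Sox9 and Sox11, and cerebellum 3 the lowest of 6, Sox1, Sox2, Sox5, Sox6, Sox8 and Sox9. Of these, Sox11 ran only from 0.63 to 1.13 in cerebellum, at or below the array median on all 5 arrays. The 10 astroglial markers averaged 9.93 on cerebellum 4, 9.55 on cerebellum 2, 9.47 on cerebellum 5, 9.02 on cerebellum 1 and 8.77 on cerebellum 3. Sox1 and Sox9, on the probe sets used, each put the 5 cerebellum arrays in this same order, and no other SOX gene of the 9 did. The second Sox9 probe set did not, with 5.48 on cerebellum 5 and 4.55 on cerebellum 2. Neither gene followed the marker order in SVZ or in hippocampus. The orders were compared after the values were seen. In hippocampus, array 4 had the highest value of 5 genes, Sox1, Sox2, Sox8, Sox9 and Sox21, with a marker mean of 8.90, second to array 1 at 9.08. Spike-in signal averaged 12.43, 11.02, 10.94, 8.71 and 8.5 on cerebellum arrays 1 to 5, in another order. The part of marker level and of spike-in signal in these levels was not tested.

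**Figure D4:**
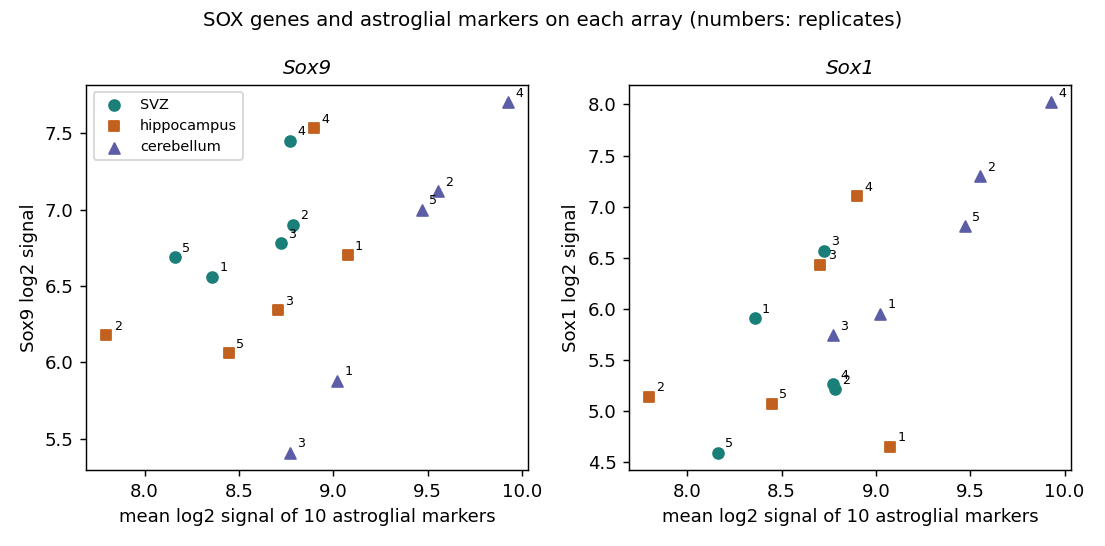
Log2 signal of Sox9 (left) and Sox1 (right) on the y axis against the mean log2 signal of 10 astroglial markers on the x axis, one point for each array with its replicate number. The 5 cerebellum arrays (triangles) fall in the same order on both axes for both genes, from replicate 3 at 8.77 to replicate 4 at 9.93 on the x axis. The SVZ and hippocampus arrays do not keep the marker order for either gene.

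The rest of the SOX family showed no called difference. In the limma fit all 10 further genes (Sox3, Sox7, Sox10, Sox12, Sox13, Sox14, Sox15, Sox17, Sox18 and Sox30) failed to pass in all 3 comparisons, with a median difference of 0.25 in SVZ and 0.22 in hippocampus against cerebellum. Sox10, the master regulator of oligodendrocytes, averaged 1.76 ± 0.37 for SVZ, 1.33 ± 0.54 for hippocampus and 1.02 ± 0.23 for cerebellum, with differences against cerebellum of 0.75 (adjusted p = 0.107) and 0.31 (adjusted p = 0.495). Next by p-value stood Sox17, an endothelial gene, at 0.43 for SVZ (adjusted p = 0.404), while in hippocampus these were Sox7 at 0.45 (adjusted p = 0.176) and Sox18 at 0.42 (adjusted p = 0.255). Sox12, of group C with Sox4 and Sox11, averaged 4.85 ± 0.57 in SVZ, 5.32 ± 0.72 in hippocampus and 5.18 ± 0.79 in cerebellum. Sox3, of group B1 with Sox1 and Sox2, averaged 1.39 ± 0.26 in SVZ, 1.33 ± 0.40 in hippocampus and 1.08 ± 0.36 in cerebellum.

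Of 14 measured partners and upstream regulators of SOX proteins, 1 was higher and 1 lower in SVZ against cerebellum. Among all genes 1.03% were higher and 4.47% lower there. In hippocampus against cerebellum 0 passed, beside 4.78% of all genes, and Ctnnb1 and Olig2 had an unadjusted p under 0.05. Olig2, a glial transcription factor upstream of Sox10, was higher in SVZ at 1.03 ± 0.23 (adjusted p = 0.0158) and stood at 0.61 in hippocampus (adjusted p = 0.148). Its levels were low, with means of 1.89 in SVZ and 0.86 in cerebellum. Ctnnb1, the beta-catenin gene whose product several SOX proteins bind, was lower in SVZ at -1.48 ± 0.40 (adjusted p = 0.0452) and stood at -1.29 in hippocampus (adjusted p = 0.0871). Between SVZ and hippocampus the smallest p-values were those of Pou3f2, a POU partner of SOX2 (1.99, adjusted p = 0.451), and Pax6, which pairs with SOX2 in lens and brain (-3.32, adjusted p = 0.531).

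Genes reported as targets of SOXB1 proteins or SOX9 in neural cells went both ways. Of 9 measured, 2 were higher, 2 lower and 5 did not pass in SVZ against cerebellum. Hippocampus against cerebellum had 2 higher, 3 lower and 4 that did not pass. The background share of calls for SVZ was 1.03% upward and 4.47% downward. For hippocampus this share was 0.808% upward and 3.97% downward. Nr2e1, a nuclear receptor of stem cells, averaged 7.51 ± 1.29 for SVZ, 6.71 ± 1.63 for hippocampus and 1.66 ± 1.16 for cerebellum, with adjusted p values of 0.000662 for SVZ and 0.00207 for hippocampus against cerebellum. Mmd2, a membrane protein gene controlled by SOX9 with NFIA in the embryonic spinal cord, was higher in SVZ at 1.10 ± 0.28 (adjusted p = 0.0362). Nes, the nestin gene, was higher in hippocampus at 0.65 ± 0.17 (adjusted p = 0.0395) with a low level of 1.73 ± 0.33 in hippocampus, against 1.07 ± 0.18 in cerebellum. Fabp7, a fatty acid carrier of radial glia, was lower at -2.46 ± 0.22 for SVZ (adjusted p = 1.64e-05) and -2.70 ± 0.22 for hippocampus (adjusted p = 4.71e-06). Slc1a3, the glutamate transporter GLAST, was lower at -1.83 ± 0.35 for SVZ (adjusted p = 0.00767) and -2.16 ± 0.35 for hippocampus (adjusted p = 0.00244). Zcchc24, another gene under SOX9 and NFIA, was lower in hippocampus at -3.13 ± 0.44 (adjusted p = 0.000728).

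Of 10 cartilage genes known to be driven by SOX9 with SOX5 and SOX6, 1 was higher and 2 lower in SVZ against cerebellum. Hippocampus against cerebellum had 2 higher and 2 lower. The background share of calls was again 1.03% upward and 4.47% downward for SVZ. It was 0.808% upward and 3.97% downward for hippocampus. Col2a1, the type II collagen gene and a classical SOX9 target, averaged 1.16 ± 0.20 for SVZ, 1.35 ± 0.31 for hippocampus and 6.35 ± 0.46 for cerebellum, with no overlap of arrays. Its difference was -5.19 ± 0.22 for SVZ (adjusted p = 1.82e-08) and -5.00 ± 0.22 for hippocampus (adjusted p = 3e-08). Sox9 itself differed by 0.25 and -0.06 on the probe set used, and by -0.77 and -0.65 on its second, without a call on either. The part of Sox9 in the Col2a1 levels was not tested. Hapln1, a link protein of hyaluronan matrix, went the other way, at 3.19 ± 0.60 for SVZ (adjusted p = 0.00622) and 4.22 ± 0.60 for hippocampus (adjusted p = 0.000744). Col9a3 was lower in SVZ at -3.98 ± 0.89 (adjusted p = 0.0172). In hippocampus Acan, the aggrecan gene, was higher at 0.73 (adjusted p = 0.0352) and Col9a2 lower at -0.76 (adjusted p = 0.0256). Both had low levels, with Acan at 1.65 in hippocampus and 0.92 in cerebellum, and Col9a2 at 1.41 and 2.17.

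The neuronal targets of group C and the myelin targets of SOX10 showed 1 called gene each, lower in both regions than in cerebellum. Beside them, 4.47% of all genes were lower in SVZ and 3.97% in hippocampus. Of 4 group C targets, Map2, a microtubule protein gene of neurons, was lower in SVZ at -1.03 ± 0.28 (adjusted p = 0.0434) and in hippocampus at -1.53 ± 0.28 (adjusted p = 0.00468). Dcx, the neuroblast gene doublecortin, averaged 1.34 ± 0.38 in SVZ, 1.10 ± 0.12 in hippocampus and 0.86 ± 0.12 in cerebellum, and did not pass against cerebellum (adjusted p = 0.115 in SVZ and 0.424 in hippocampus). Of 6 measured SOX10 targets, Cnp, a myelin enzyme gene, was lower in SVZ at -2.02 ± 0.26 (adjusted p = 0.000315) and in hippocampus at -2.97 ± 0.26 (adjusted p = 8.26e-06). The other 5 read higher than in cerebellum in both regions, without a call. Of these, Mbp had the largest difference in SVZ against cerebellum, at 2.37 (adjusted p = 0.119). Between SVZ and hippocampus 0 genes of these target lists passed in the limma fit, and the smallest p-values belonged to Zcchc24 (1.98, adjusted p = 0.311), Egfr (1.86, adjusted p = 0.531), Col9a2 (0.61, adjusted p = 0.466) and Acan (-0.56, adjusted p = 0.525), and for the myelin targets to Cnp (0.95, adjusted p = 0.43) and Mbp (2.21, adjusted p = 0.587).

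Markers of other cells that the sorted pools could hold were read beside Sox4 and Sox11. The mean level of 10 neuroblast markers ran from 1.37 to 1.64 in SVZ, from 1.07 to 1.73 in hippocampus and from 0.902 to 1.34 in cerebellum. In the limma fit 0 of the 10 were called in any comparison, with 3 (Cd24a, Dcx and Dlx1) at an unadjusted p under 0.05 in SVZ and 0 in hippocampus against cerebellum. Cd24a, a surface protein gene of neuroblasts, stood at 2.30 in SVZ against cerebellum (adjusted p = 0.131), and Dlx1, a factor of interneuron precursors, at 0.47 in hippocampus against cerebellum (adjusted p = 0.265). Array by array the neuroblast mean followed neither gene throughout. For Sox11 the orders were close in hippocampus, where both were highest on array 2, next on array 5 and lowest on array 4. In SVZ they parted, with Sox11 highest on array 3 and the neuroblast mean on array 2. These orders were compared after the values were seen. SVZ 5, with the highest Sox4 value of all arrays, had the lowest neuroblast mean of SVZ, 1.37. Hippocampus 2, with the highest Sox4 and Sox11 values of its region, had the highest mean there of neuroblast (1.73), endothelial (2.25) and ependymal markers (3.96) and the lowest of astroglial markers (7.80).

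Microglial markers averaged 3.07 to 5.82 in SVZ and 2.55 to 4.91 in hippocampus, against 1.25 to 2.41 in cerebellum. Of 10, 3 were called higher in SVZ and 2 in hippocampus against cerebellum, beside 1.03% and 0.808% of all genes. In SVZ 9 of 10 read higher than in cerebellum, with a median difference of 3.19, and in hippocampus 10 of 10, with 1.32. P2ry12 averaged 1.52 ± 0.54 in SVZ, 1.98 ± 1.10 in hippocampus and 1.54 ± 0.46 in cerebellum. In the same order Tmem119 averaged 1.35 ± 0.37, 1.22 ± 0.33 and 0.84 ± 0.14, and Itgam 0.98 ± 0.33, 0.82 ± 0.16 and 0.68 ± 0.08. Csf1r, a growth factor receptor, stood at 5.34 in SVZ (adjusted p = 0.0034), and at 4.23 in hippocampus (adjusted p = 0.0162). Laptm5, a lysosomal protein gene of blood cells, stood at 4.92 in SVZ (adjusted p = 0.00345), and at 3.72 in hippocampus (adjusted p = 0.0212). On SVZ arrays 1 to 5 the microglial mean was 3.07, 4.01, 5.22, 4.26 and 5.82, which is the order of the arrays by Sox4. On hippocampus arrays 1 to 5 it was 3.21, 3.75, 4.91, 2.55 and 3.20, with its highest value on array 3, where Sox4 read 1.51, and not on array 2, where Sox4 read 3.20. The orders were compared after the values were seen.

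The mean of 8 oligodendrocyte precursor markers was 1.86 to 2.59 in SVZ and 1.77 to 2.02 in hippocampus, against 0.966 to 1.19 in cerebellum, with no overlap. All 8 read higher in SVZ than in cerebellum, with a median difference of 0.52, and 6 of 8 in hippocampus, with 0.32. Gpr17 (0.68 in hippocampus, 0.77 in cerebellum) and Lhfpl3 (0.77 and 0.92) went the other way there. In both regions the largest difference of the list was that of Olig1. Of the 8, 2 were called higher in SVZ and 1 in hippocampus, beside 1.03% and 0.808% of all genes. Olig1, a factor of the oligodendrocyte lineage, was called higher at 4.52 in SVZ (adjusted p = 5.11e-07), and at 4.02 in hippocampus (adjusted p = 1.23e-06), and Olig2 was called in SVZ. Cspg4, the NG2 proteoglycan gene of these precursors, averaged 2.80 ± 1.89 in SVZ, 1.42 ± 0.64 in hippocampus and 1.09 ± 0.29 in cerebellum. Its SVZ arrays did not overlap with cerebellum, at a difference of 1.71 (adjusted p = 0.172). Pdgfra, a receptor gene of the same cells, averaged 1.24 ± 0.40 in SVZ, 1.48 ± 0.47 in hippocampus and 1.04 ± 0.20 in cerebellum. The part of microglia, precursors and neuroblasts in the SOX levels was not tested.

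Of the remaining marker lists, oligodendrocytes had 1 of 8 lower, Cnp, in both regions against cerebellum. Of these 8, 6 read higher than in cerebellum in SVZ and 6 in hippocampus, with 0 called higher. Among them Mbp and Mobp in SVZ, and Cldn11 and Mog in hippocampus, had an unadjusted p under 0.05. Neurons had 1 of 12 lower, Map2, in both regions. Beside these, 4.47% of all genes were lower in SVZ and 3.97% in hippocampus. The lists of 9 endothelial and 8 ependymal genes had 0 called in the limma fit, with Cdh5 and Rarres2 at an unadjusted p under 0.05 in SVZ and Rarres2 in hippocampus. Of the endothelial genes, Cdh5, the VE-cadherin gene, stood at 0.62 in SVZ (adjusted p = 0.207), and at 0.52 in hippocampus (adjusted p = 0.295), and Flt1, a VEGF receptor gene, at 1.34 in SVZ (adjusted p = 0.248). Of the ependymal genes, Rarres2 stood at -2.02 in SVZ (adjusted p = 0.146), and at -1.97 in hippocampus (adjusted p = 0.168), Dynlrb2, a dynein light chain gene, at -1.54 in SVZ (adjusted p = 0.31), and Tmem212 at 0.23 in hippocampus (adjusted p = 0.444). Between SVZ and hippocampus 0 marker genes passed, and the smallest p-values of each list belonged to Emcn and Sox17 (endothelial), Dynlrb2 and Pifo (ependymal), C1qa and C1qc (microglia), Cd24a and Dlx5 (neuroblasts), Map2 and Gad1 (neurons), Gpr17 and Cspg4 (precursors), Cnp and Mbp (oligodendrocytes) and Gfap and Slc4a4 (astroglia), the lowest adjusted p being 0.364 for Gfap. Of the 10 astroglial markers, 1 was higher (beside 1.03% of all genes) and 2 lower (beside 4.47%) in SVZ, and 4 were lower (beside 3.97%) in hippocampus. Glul, the glutamine synthetase gene, was higher in SVZ at 0.92 (adjusted p = 0.0279), and S100b was lower at -3.41 for SVZ (adjusted p = 0.000254) and -3.67 for hippocampus (adjusted p = 0.000118).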

How the data were processed

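The deposited values are signals on a log2 scale that the authors made with RMA, per the submitters' processing notes. No label names the log base, and a further background or scaling step would alter every difference. The platform annotation gave a single gene symbol for 34958 of 45101 probe sets, several for 932, and had no entry for 9211. Entrez identifiers brought 34754 symbols up to date, and 64 control probe sets were left out. limma 3.58.1 in R 4.3.3 fitted region over all 15 arrays with a shared spread, and the fit was tested on simulated data. Figures used matplotlib 3.10.9 in Python 3.11.15. Scan data were not used, and the number of arrays limits the precision. The SOX genes and all lists (the rest of the family, partners, 4 target lists and 8 cell marker lists) were chosen with earlier results of these data known. From each list the text names 2 called genes in each direction by size of difference, or 2 by p-value where none was called. Pdgfra, Sox2ot, Mbp and Cspg4 against cerebellum, Slc1a3 in hippocampus and Dcx levels were added after their values were seen. So were the levels of Sox3, Sox12, Gpr17, Lhfpl3, P2ry12, Tmem119 and Itgam. Same-numbered arrays did not deviate together (correlations -0.12 to 0.14), so replicate numbers were not used as pairs. Alternatives were a replicate block, other normalizations, filters, weights, probe set rules, thresholds and left-out arrays.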

Additional observations from a re-analysis of the deposited data

Results flagged for a closer look

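Of 27 groups of 5 arrays (9 SOX genes in 3 regions), 2 held an array set apart from the rest by more than 0.71 of the group's range, where chance gives about 5% of groups. Sox4 read 3.20 on hippocampus 2, against 1.25 to 1.75 on the other hippocampus arrays. Sox5 read 4.90 on hippocampus 3, against 2.64 to 3.26 on the others.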

How the results depend on the processing

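The 1 SOX gene called in SVZ against cerebellum became 0 under the replicate block, where Sox4 had an adjusted p of 0.0634, and the block changed no other SOX call. It was 0 with quantile normalization, median centring, every probe set on its own, the spike-in covariate and an adjusted p under 0.01. It was 3 with the mean of probe sets, and 2 with array weights, with array weights per region and with SVZ 1 and hippocampus 3 left out together, a setting chosen after seeing the data. The filter on dim genes, those with a mean under 2, dropped Sox4 itself and called Sox11. In hippocampus against cerebellum 0 became 1, Sox11, with dim genes left out, both array weights, only the 2 regions compared and the 4-fold rule. Leaving out 1 array at a time gave 0 to 2 SOX genes in SVZ and 0 to 1 in hippocampus against cerebellum, and 0 between SVZ and hippocampus. Of all genes, 1002 passed in SVZ and 869 in hippocampus against cerebellum, but 609 and 492 with quantile normalization, 198 and 226 with the spike-in covariate, 584 and 522 by the 4-fold rule, 388 and 365 at an adjusted p under 0.01, and 1561 in SVZ with array weights. The cause was not tested.

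Signs turned only for differences that did not pass. Against cerebellum in SVZ, Sox5 was 0.018 with quantile normalization, Sox6 was -0.034 and Sox9 -0.21 with the mean of probe sets, and they were -0.14 and -0.11 over every probe set. With 1 array left out, Sox2 ran from -0.12 to 0.53 and Sox9 from -0.049 to 0.52 there. Against cerebellum in hippocampus, quantile normalization gave Sox21 0.42, Sox5 0.33 and Sox9 0.37, and the spike-in covariate gave Sox21 0.034 and Sox9 0.44. Sox21 was 0.21 with the mean of probe sets and over every probe set, and 0.18 without SVZ 1 and hippocampus 3. With 1 array left out, Sox21 ran from -0.52 to 0.18 and Sox9 from -0.36 to 0.21 there. Between SVZ and hippocampus, Sox11 was -0.058 with quantile normalization, and Sox8 was 0.13 with array weights and 0.29 without both arrays. With 1 array left out, Sox1 ran from -0.44 to 0.19, Sox11 from -0.46 to 0.72, Sox5 from -0.45 to 0.14 and Sox8 from -0.54 to 0.71.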
